A study of Mus musculus with 10 samples.

Results

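Conventional type 2 dendritic cells (cDC2s) that had been sorted as maturing from mouse Peyer's patches were described by the messenger RNA of single cells. They were the cells that carried exactly 1 hashtag, an antibody with a DNA barcode added after the sort, and whose hashtag was B0306. Hashtags were called with HTODemux of Seurat at a positive quantile of 0.99. A cell also needed at least 1000 UMIs (unique molecular identifiers, the counted RNA molecules), at least 500 genes and at most 10% mitochondrial UMIs. This gave 261 cells of the 14687 cells used in the series and of the 7217 used in dataset 1, the library that held all of them. The nearest population was the cDC2s sorted as immature, with hashtag B0305 and 970 cells.

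Dataset 1 was 1 library in which 9 sorted populations were pooled. Both cDC2 populations and the follicular, immature, intermediate and mature LysoDCs, which are lysozyme-expressing phagocytes of the patches, came from Peyer's patches of 30 untreated female C57BL/6Rj mice. The 3 blood populations, which were Ly6C+ monocytes, CD43+ monocytes and CD115hi cells with neither marker (called DN blood cells), came from 20 females of the same strain, bled 9 days after clodronate-loaded liposomes. All donors of a tissue were pooled before the sort, and no group carried a genetic alteration. The patches had been digested with collagenase II and DNase I and CD11c+ cells were enriched with beads, so cells without CD11c were largely removed. Cells were stained for sorting with antibodies to the dendritic cell proteins CD11c, MHCII, XCR1, CD24 and SIRPa, to the integrin chain CD11b, to CD4 and CD101, to the phagocyte receptor MerTK, and to the adhesion proteins embigin and JAM-A, and the labels do not say which of these separated maturing from immature cDC2s. Differences in the genes of these proteins are therefore given as checks of the gates only. Dataset 2 held no cDC2s, and 37 barcode sequences occurred in both datasets, 13 of them among used cells.

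Each population was thus 1 sum of cells from 1 pool of mice, with no replicate. No test was possible between them, and intervals are exact 95% intervals that cover counting error only. Levels are UMIs per 1000000 UMIs of the summed cells (CPM). A gene was counted as higher or lower when its level differed at least 2-fold by the point value and was at least 20 CPM in the higher of both sums.

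Immature cDC2s take up antigen in the tissue. When they mature they load peptides onto MHC class II, raise costimulatory molecules for T cells and put CCR7 on their surface, the receptor for CCL19 and CCL21 that guides them to T cell zones. In Peyer's patches this route leads from the dome below the gut epithelium to the T cell zones between the follicles. LysoDCs of the same dome descend from monocytes and express lysozyme and the complement C1q chains.

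Of 1500 cells sorted as maturing cDC2s, 281 barcodes carried this hashtag alone and 20 of them failed the cell filters, so that 17.4% of the sorted cells were used. They held 2022332 UMIs, with medians of 7480 UMIs and 2298 genes per cell, against 7388 UMIs and 2407 genes in immature cDC2s. Depth was therefore close to equal in both gates. It was lower in blood populations, with medians of 2963 to 4484 UMIs, and higher in LysoDCs, with 10551 to 14279 UMIs. Unthinned shares of cells with a UMI are therefore not like for like between cDC2s and these populations. The median share of mitochondrial UMIs was 2.32% in maturing and 2.47% in immature cDC2s.

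A first feature of the maturing gate was a minority of cells rich in C1q transcripts. C1qa, C1qb and C1qc encode the chains of the complement component C1q and lie next to each other on mouse chromosome 4 (GRCm38, C1qa at 136895917 to 136898803). At least 10 summed C1q UMIs were found in 44 of 261 maturing cDC2s, or 16.9% (95% Clopper-Pearson interval 12.5 to 21.96). In immature cDC2s the share was 4.12% (2.96 to 5.57), or 40 of 970 cells. Blood populations, which shared the library but were shallower, gave 1.72% to 2.86%, and LysoDCs, which were deeper, gave 87.5% to 99.1%.

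The number of C1q UMIs per cell also differed between both gates. Among maturing cDC2s, 21 cells held at least 100 C1q UMIs and the highest held 301, whereas 1 immature cDC2 reached 100 and the highest held 123. The median over all cells was 4 UMIs in each gate. Near the threshold, 6 maturing cDC2s held 8 or 9 UMIs and 6 held 10 to 12. With a threshold of 5 UMIs the shares became 46.0% and 38.6%.

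**Figure D1:**
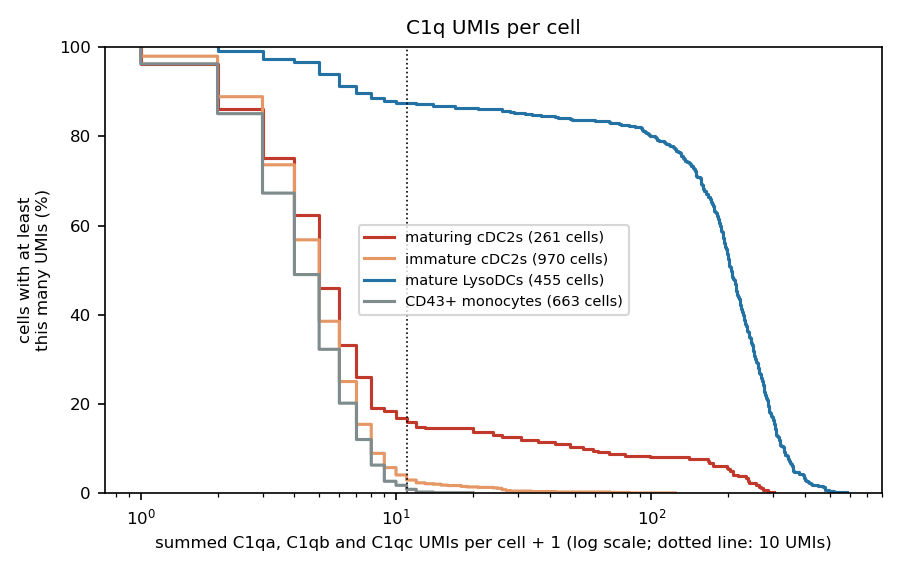
Share of cells (vertical axis, %) with at least a given number of summed C1qa, C1qb and C1qc UMIs (horizontal axis, UMIs + 1, log scale) in 4 populations of dataset 1. Past the dotted line at 10 UMIs lie 16.9% of maturing and 4.12% of immature cDC2s, and the line of maturing cDC2s runs on to 301 UMIs.

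The C1q-high maturing cDC2s also carried other LysoDC transcripts. Their summed level of C1qa was 6883 CPM (6623 to 7151), against 7366 to 10297 CPM in the 4 LysoDC populations and 259 CPM in the remaining maturing cDC2s. The cells were chosen by their C1q UMIs, so the gap in C1qa to the remaining cells is no finding. Lyz1, a lysozyme gene, stood at 7814 CPM in them and at 425 CPM in the remaining cells. Il22ra2, which encodes the soluble decoy receptor for IL-22, stood at 2792 CPM against 348 CPM. Adamdec1, a protease gene of gut mononuclear phagocytes, stood at 767 CPM against 27.5 CPM.

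Several genes of the cDC2 side were low in the same cells. Ltb, the lymphotoxin beta gene, was at 57.4 CPM in C1q-high and 430 CPM in the remaining maturing cDC2s. Epcam, an adhesion molecule gene, was at 67.8 and 261 CPM. Ccr7 was found in 2 of the 44 cells. Ccl5 was found in 0 of 44, with an upper bound of its interval at 9.62 CPM. Other genes went the other way. Ccl17, a chemokine gene, was at 130 CPM against 53.1 CPM, with 37 of its 50 UMIs from 1 cell. Itgam (CD11b), a gene of the sorting panel, was at 107 against 55.5 CPM. Ccr2, the receptor gene that takes monocytes into tissue, was at 334 CPM against 48.2 CPM. The median number of UMIs of their own hashtag was 285 in C1q-high and 234 in the remaining maturing cDC2s, and that of the 4 LysoDC hashtags together was 106.5 and 97. Median depth was 9821 and 7322 UMIs per cell. Barcodes called as carrying 2 or more hashtags had been removed, and no other doublet caller was run. The part of other cell types in these 44 cells was not tested.

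All comparisons that follow leave out cells with at least 10 C1q UMIs in both gates, which left 217 maturing cDC2s with 1639066 UMIs and 930 immature cDC2s with 7173243 UMIs.

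Transcripts of antigen-presenting and dendritic cells were present in the gate. In maturing cDC2s, Cd74, the MHC class II invariant chain gene, reached 28295 CPM, Itgax (CD11c) 234 CPM, Sirpa 110 CPM and Flt3, the growth factor receptor gene of dendritic cells, 77.5 CPM. Itgax and Sirpa belong to the sorting panel and are checks of the gate only. These levels are not set against LysoDCs or blood cells here, so they do not by themselves identify cDC2s. Of the genes of the sorting panel, Itgam (CD11b) was 3.16-fold higher in maturing than in immature cDC2s (2.39 to 4.17), at 55.5 against 17.6 CPM. Cd24a (CD24) was at 0.490 of the immature level (0.389 to 0.611). Emb (embigin) was at 152 against 227 CPM, and F11r (JAM-A), Sirpa and Itgax were at 0.921, 0.842 and 0.929 of the immature level.

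The name maturing was checked against Ccl5, Ccr7, Ccl17 and Il12b. Maturing cDC2s had the highest level of Ccl5 and Ccr7 among the 9 populations, but not of Ccl17 or Il12b. None of the 4 genes had a UMI in 59.4% of maturing and in 78.1% of immature cDC2s. No cell of either gate held all 4.

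Ccl5 encodes a chemokine for T cells and monocytes and lies on chromosome 11 (GRCm38, 83525778 to 83530518, minus strand). Its level was 148 CPM (130 to 167) in maturing and 11.3 CPM (8.97 to 14.03) in immature cDC2s, a 13.1-fold difference (10.1 to 17.0). A Ccl5 UMI was found in 42 of 217 maturing cDC2s, 19.4% (14.3 to 25.2), and in 51 of 930 immature cDC2s, 5.48% (4.11 to 7.15). The other 7 populations gave 0.305% to 2.09%. Of the 242 Ccl5 UMIs in maturing cDC2s, however, 145 came from 1 cell. That cell also held 135 UMIs of Gzma, 9 of Cd3e and 8 of Cd8a, genes of cytotoxic lymphocytes, and 0 of Ccr7. With the highest cell of each gate left out, the log2 ratio of Ccl5 was 2.54 in place of 3.71. The part of lymphocytes in the rest was not tested. Thinned to 2000 UMIs per cell, 9.52% of maturing and 2.50% of immature cDC2s held a Ccl5 UMI.

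Ccr7, also on chromosome 11 (99144196 to 99155077, minus strand), was at 113 CPM (97.2 to 130) in maturing and 64.7 CPM (58.9 to 70.8) in immature cDC2s, or 1.74-fold higher (1.46 to 2.07). This is below the 2-fold threshold. It was detected in 45 of 217 maturing cDC2s (20.7%, 15.5 to 26.7) and in 113 of 930 immature cDC2s (12.2%, 10.1 to 14.4). After thinning to 2000 UMIs the shares were 12.4% (8.25 to 17.6) of 210 cells and 7.07% (5.50 to 8.93) of 919 cells. In the other 7 populations the unthinned shares were 0.119% to 1.76% and the levels 0.261 to 4.09 CPM. Both cDC2 gates thus held cells with Ccr7 transcripts, and the gate sorted as immature held more of them in number.

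Ccl17 encodes a chemokine for CCR4-bearing T cells and lies on chromosome 8 (94810453 to 94812036, plus strand). It was at 53.1 CPM (42.5 to 65.5) in maturing and 28.3 CPM (24.5 to 32.5) in immature cDC2s. The share of cells with a UMI was nearly the same, 6.91% and 6.34%, 2 maturing cDC2s gave 36 and 26 of the 87 UMIs, and 1 immature cDC2 gave 103 of 203. Without the cells that held defining markers of another cell type the log2 ratio was 0.14 in place of 0.91. LysoDCs had 52.0 to 59.5 CPM of Ccl17 in 27.5% to 31.9% of cells, the same level in more cells, at a greater depth per cell.

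Il12b, which encodes the shared chain of IL-12 and IL-23, was at 10.4 CPM (6.04 to 16.6) in maturing and 9.48 CPM (7.36 to 12.02) in immature cDC2s. All 17 UMIs of the maturing cDC2s came from 1 cell. The gene was highest in mature LysoDCs, at 45.9 CPM (40.7 to 51.6) in 14 of 455 cells.

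**Figure D2:**
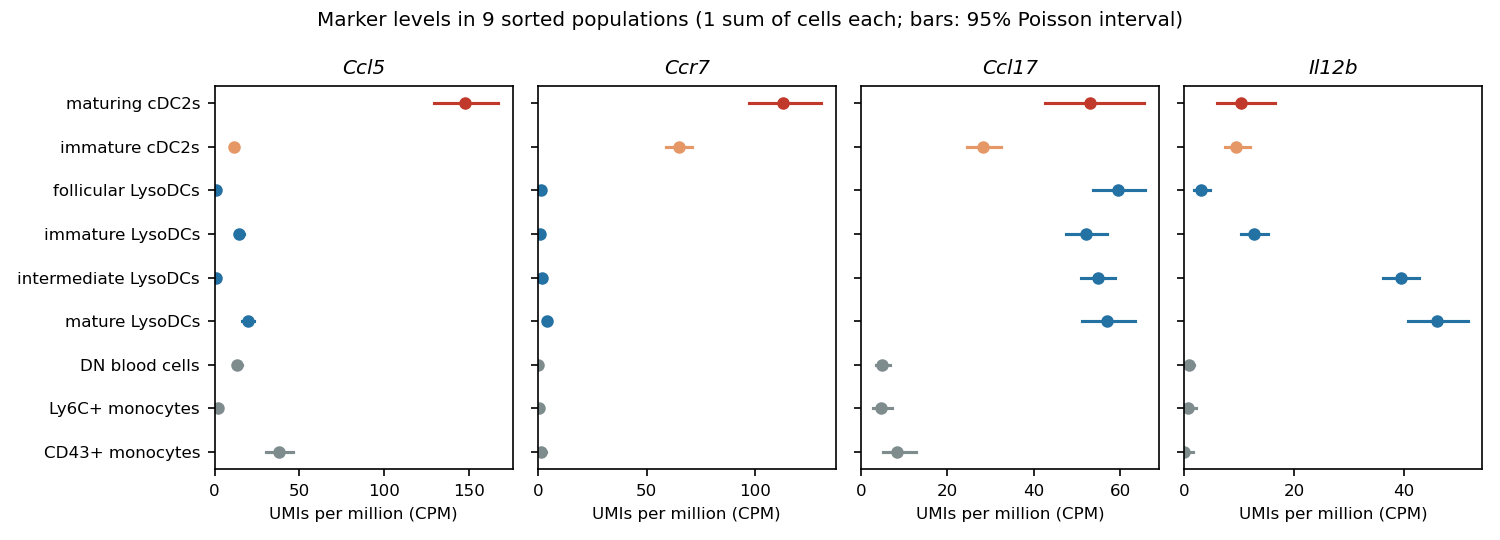
Levels of Ccl5, Ccr7, Ccl17 and Il12b (horizontal axes, CPM) in the 9 populations of dataset 1, each a single sum of cells, with exact 95% Poisson intervals as bars. Maturing cDC2s stand highest for Ccl5 at 148 CPM and Ccr7 at 113 CPM, lie level with LysoDCs for Ccl17 and below mature LysoDCs for Il12b.

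Across all genes both cDC2 gates were close to each other. Of 5561 genes compared, 36 were at least 2-fold higher in maturing cDC2s (0.647%) and 47 at least 2-fold lower (0.845%). The median log2 ratio over all compared genes was -0.09, and 36.3% of them lay above 0. The counts for gene lists that follow are to be read beside these shares. With the highest cell of each gene left out 22 genes were higher and 58 lower, and 21 of the 36 and 43 of the 47 were among them. With C1q-high cells kept, 73 were higher and 37 lower.

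Among genes of at least 100 CPM, 5 named genes were higher. Besides Ccl5 they were Fabp5, Rap2a, Tmem176a and Tmem176b. Fabp5, which encodes a fatty acid carrier protein, was at 1052 CPM against 483 CPM, 2.18-fold (2.06 to 2.31), and was detected in 160 of 217 against 653 of 930 cells. Without cells that held a Ccr7 UMI its log2 ratio was 0.63 in place of 1.12. Rap2a, a small GTPase gene of the Ras family, was at 134 against 52.4 CPM, 2.55-fold (2.15 to 3.02), in 104 of 217 against 246 of 930 cells.

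Tmem176a and Tmem176b encode related membrane proteins whose transcripts are known from immature dendritic cells. They were at 362 and 373 CPM in maturing cDC2s, against 165 and 163 CPM in immature cDC2s, or 2.20-fold (1.99 to 2.43) and 2.29-fold (2.07 to 2.52). Tmem176b was found in 71.9% of maturing and 50.2% of immature cDC2s. Both genes were several times higher still in LysoDCs, at 1561 to 1941 CPM for Tmem176b. With C1q-high cells kept, the log2 ratio of Tmem176b was 1.85 in place of 1.19.

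Outside the sorting panel, 3 genes of at least 100 CPM were lower, namely Ccr9, Il22ra2 and the immunoglobulin gene Igkc. Igkc, which belongs to B and plasma cells, was at 175 against 567 CPM in 11 of 217 and 62 of 930 cells, and the part of such cells was not tested. Ccr9, the receptor gene for the gut chemokine CCL25, was at 98.8 CPM (84.2 to 115) in maturing and 293 CPM (281 to 305.8) in immature cDC2s, a ratio of 0.337 (0.286 to 0.396). It was detected in 37.3% of maturing and 72.2% of immature cDC2s, and in 60.4% to 80.0% of LysoDCs, so that maturing cDC2s were the lowest of the 6 Peyer's patch populations. Its log2 ratio lay between -1.94 and -1.34 under the 12 alternative settings that changed cells, scaling or depth. Blood populations had 6.26 to 10.4 CPM.

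Il22ra2 was at 348 CPM (320 to 378) in maturing and 711 CPM (692 to 731) in immature cDC2s, a ratio of 0.490 (0.448 to 0.534). Blood populations gave 152 to 212 CPM and LysoDCs 2821 to 3837 CPM. The share of cells with an Il22ra2 UMI was 67.3% in maturing and 72.6% in immature cDC2s, against 48.2% to 52.8% in the shallower blood cells. With C1q-high cells kept in both gates the log2 ratio was 0.14 in place of -1.03.

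**Figure D3:**
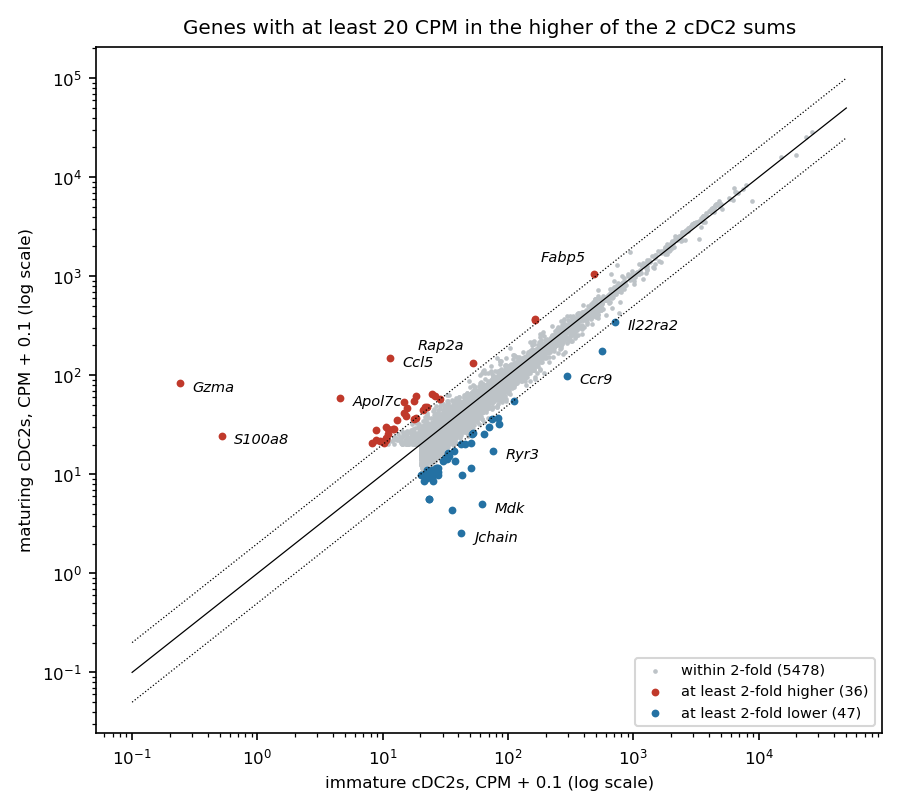
Levels of the 5561 compared genes in immature (horizontal axis) and maturing cDC2s (vertical axis), both as CPM + 0.1 on log scales, without C1q-high cells; the solid line marks equal levels and dotted lines 2-fold differences. Most genes lie within the dotted lines, with 36 points above and 47 below them, and Gzma and S100a8, at the far left, rest on 135 of 136 and 32 of 40 UMIs from single cells.

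Genes of dendritic cell maturation stood slightly higher in the maturing gate as a list. Of 24 compared members of a 30-gene list, 2 were at least 2-fold higher (Ccl5 and Apol7c), 0 at least 2-fold lower, and 19 had a log2 ratio above 0. Both higher members lay below 20 CPM in immature cDC2s and were compared only through the maturing gate. The list includes the markers Ccl5, Ccl17 and Il12b and shares Ccl5 with the chemokine list below, so these are not separate results. The list's median log2 ratio was 0.28, beside -0.09 over all compared genes, and 0.13 without cells that held a Ccr7 UMI. Without those cells 3 of 18 compared members were higher, beside 0.752% of 5585 genes, and 0.949% of genes were lower. These members were Ccl5, Ccl17 and Ccl22. They too lay below 20 CPM in immature cDC2s and were compared only through the maturing gate, so their count is no measure of the list. Cd83, which encodes a surface protein of mature dendritic cells, was at 188 against 104 CPM (1.80-fold, 1.58 to 2.06) and was detected in 78 of 217 against 200 of 930 cells. Serpinb6b, a protease inhibitor gene, was at 34.2 against 18.4 CPM.

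Apol7c encodes an apolipoprotein L family member that is known from mature dendritic cells. It was at 59.2 CPM (48.0 to 72.2) in maturing and 4.46 CPM (3.05 to 6.30) in immature cDC2s, 13.3-fold (8.81 to 20.5). Its 97 UMIs came from 9 cells, the highest of which gave 30. In the other 7 populations it stood at 0 to 3.92 CPM. Cells with Apol7c were few, with 9 of 217 maturing and 6 of 930 immature cDC2s.

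Chemokine ligand genes had a median log2 ratio of 0.97 over 6 compared members, with 3 at least 2-fold higher and 0 lower, beside 0.647% and 0.845% of all compared genes and their median of -0.09. Besides Ccl5 these were Ccl6, at 35.4 against 12.8 CPM (2.76-fold, 1.95 to 3.87), and Cxcl9, a chemokine gene induced by interferon gamma, at 20.7 against 10.2 CPM (2.04-fold, 1.32 to 3.10). All 3 lay below 20 CPM in immature cDC2s and entered the comparison only through their level in the maturing gate. The list held 21 genes, most of them below the floor in both gates, so its median rests on few members. Ccl22, which shares the receptor CCR4 with Ccl17, was at 36.6 against 22.9 CPM. Ccl6 was at 1402 CPM in Ly6C+ monocytes, whose part in its level in cDC2s was not tested.

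Costimulatory, cytokine and NF-kappaB genes gave counts near the background of 0.647% higher and 0.845% lower genes, from which nothing particular to them can be read. Among 10 compared costimulatory and coinhibitory genes, 0 were past 2-fold, with a median log2 ratio of 0.27. Icosl, the ligand gene for ICOS on T cells, was at 56.1 against 35.5 CPM, Cd274 (PD-L1) at 151 against 118 CPM and Cd86 at 126 against 104 CPM. Among 7 cytokine and TNF ligand genes, 0 were past 2-fold. Ltb was at 430 against 767 CPM and Il1b at 1011 against 810 CPM. Among 21 genes of the NF-kappaB pathway 0 were past 2-fold and the median was 0.01, with Relb at 394 against 313 CPM and Rel at 351 against 263 CPM.

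Antigen presentation genes were likewise near the background of 0.647% and 0.845%. Of 13 MHC class II and loading genes and 21 MHC class I genes, 0 in each list were past 2-fold. Median log2 ratios were 0.02 and 0.04. Cd74 lay at 28295 against 26548 CPM, and H2-Oa, a brake on peptide loading, at 298 against 368 CPM.

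Among genes of cDC2 identity, 3 lectin genes stood higher in the maturing gate while the list as a whole did not. Of 13 compared members, 4 were at least 2-fold higher and 0 lower, beside 0.647% and 0.845% of all compared genes. All 4 lay below the floor in immature cDC2s and entered the comparison only through their level in the maturing gate. Members below the floor in both gates were not among the 13, so the count of higher members is no measure of the list. The list's median log2 ratio was -0.06, 6 of 13 lay above 0, and Ltb was the lowest at -0.83. Mgl2 was at 53.1 against 14.8 CPM (3.59-fold, 2.67 to 4.82), Cd209a at 46.4 against 15.5 CPM (3.00-fold, 2.21 to 4.05) and Clec10a at 41.5 against 14.8 CPM (2.81-fold, 2.04 to 3.84). The fourth was Itgam, a gene of the sorting panel. These lectin genes were found in 22, 36 and 35 of 217 maturing cDC2s, against 33, 50 and 44 of 930 immature cDC2s. DN blood cells stood higher for all 3 lectins, with 489 CPM of Cd209a and 430 CPM of Clec10a.

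Runx1, a transcription factor gene, was also higher outside these lists, at 62.2 against 18.4 CPM (3.38-fold, 2.59 to 4.41). LysoDC and blood populations stood at 48.2 to 75.5 CPM, so immature cDC2s were the lowest for this gene and maturing cDC2s lay among the others. Of 12 monocyte genes 4 were compared and 2 of these were higher, beside 0.647% of all compared genes, a count that rests on few members. Ccr2 was at 48.2 against 21.6 CPM, and Ms4a4c, at 36.6 against 18.3 CPM, lay at the threshold itself. Lgmn, which encodes the lysosomal protease legumain, was the only one of 29 lysosomal genes past 2-fold, at 39.0 against 15.3 CPM (2.55-fold, 1.84 to 3.50). Like Runx1 and Ms4a4c, Lgmn lay below the floor in immature cDC2s and was compared only through its level in the maturing gate. The list's median of -0.14 was near that of all compared genes, -0.09, and Lamp1 was at 405 against 608 CPM.

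Of 17 compared cell cycle genes, 1 was at least 2-fold higher in maturing cDC2s and 0 lower, beside 0.647% and 0.845% of all compared genes. The list's median log2 ratio was 0.36 and 16 of 17 lay above 0, against -0.09 and 36.3% over all compared genes. Birc5, the survivin gene of dividing cells, was at 65.3 against 24.7 CPM (2.65-fold, 2.06 to 3.38), in 21 of 217 and 48 of 930 cells. Its log2 ratio of 1.40 was 0.80 with hashtags called by MULTIseqDemux, 0.97 after thinning and 0.99 with a C1q threshold of 5 UMIs. Top2a, the topoisomerase gene of S and G2 phase, was at 148 against 96.7 CPM and Mki67 at 102 against 73.9 CPM.

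Other lower genes in maturing cDC2s were Ryr3, an intracellular calcium channel gene (17.1 against 76.1 CPM), Cdh17, a cadherin gene of the gut epithelium (9.76 against 42.9 CPM), and Mdk, which encodes the growth factor midkine (4.88 against 62.0 CPM). They were detected in 16, 14 and 4 of 217 maturing cDC2s and in 269, 181 and 119 of 930 immature cDC2s. These 3 genes, like Runx1, were chosen after their values had been seen. Il7r, the IL-7 receptor gene, was at 20.1 against 41.7 CPM. Of 16 genes of cholesterol synthesis and export 0 were past 2-fold, with Insig1 at 15.9 against 30.1 CPM.

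**Figure D4:**
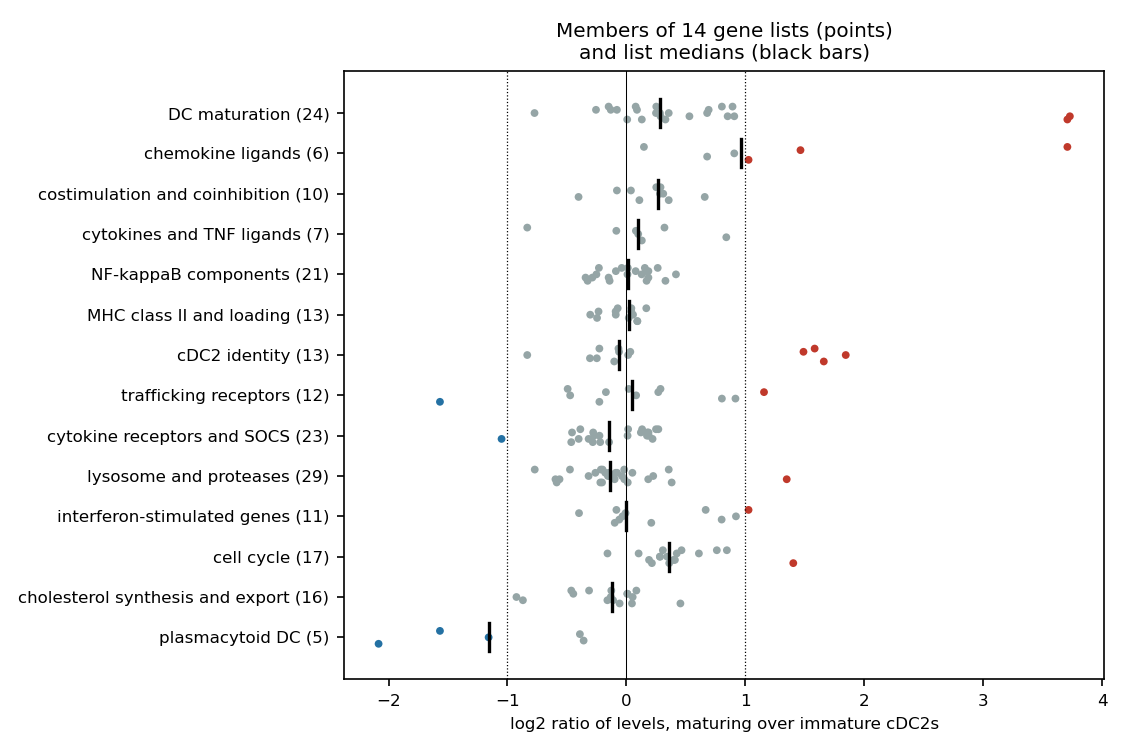
Log2 ratio of levels, maturing over immature cDC2s (horizontal axis), for the compared members of 14 gene lists (points, with the number compared beside each list name) and the median of each list (black bars); dotted lines mark 2-fold. Of the 14, chemokine ligands have the highest median at 0.97 and plasmacytoid DC genes the lowest at -1.16, while NF-kappaB and MHC class II genes centre near 0. The chemokine ligands past 2-fold were compared only through their level in the maturing gate.

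Markers of other cells moved with a part of these genes. Plasmacytoid dendritic cell genes had a median log2 ratio of -1.16, with 3 of 5 compared members at least 2-fold lower (Ly6a, Ly6d and Ccr9), beside 0.845% of all compared genes. At least 3 UMIs of the defining plasmacytoid markers were found in 0 of 217 maturing and in 10 of 930 immature cDC2s. Defining B cell markers were found in 5 and 13 cells, plasma cell markers in 1 and 7, neutrophil markers in 3 and 0, T cell markers in 1 and 3, and cytotoxic lymphocyte markers in 1 and 0 cells. In all, 8 of 217 maturing (3.69%) and 27 of 930 immature cDC2s (2.90%) held such markers. Without these cells, 34 genes were higher and 41 lower, 31 and 38 of them among those of the full comparison. Ly6d then had 1 UMI in maturing and 0 in immature cDC2s, in place of 61 and 596. Ly6a had 2 and 8 in place of 9 and 167. Neither gene was among the markers that chose the cells. Ccr9, in turn, was found in 72.2% of all immature cDC2s and stayed more than 2-fold lower in maturing cDC2s without the marker-bearing cells.

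Ccr7-bearing cells inside the maturing gate were also compared with the rest of the gate. The 45 maturing cDC2s with a Ccr7 UMI, which had a median of 7421 UMIs, were set against the 172 without one, which had 7322. This split uses Ccr7 itself, so its level is no finding. Of 5677 genes, 404 were at least 2-fold higher (7.12%) and 647 at least 2-fold lower (11.4%) in cells with a Ccr7 UMI, each group being a sum of few cells. Of 27 compared members of the maturation list, 22 were higher and 0 lower, with a median log2 ratio of 1.90 beside -0.08 over all genes. Members such as Fscn1, Apol7c and Cacnb3 lay below 20 CPM in cells without a Ccr7 UMI. They were compared only through the cells with one.

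Fscn1, the actin bundler gene of mature dendritic cell processes, was at 235 against 14.5 CPM (16.2-fold, 9.70 to 28.3). Cd83 was at 683 against 64.1 CPM (10.7-fold, 8.26 to 13.9). Il4i1, which encodes a secreted amino acid oxidase, was at 826 against 118 CPM (6.99-fold, 5.71 to 8.57).

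Socs2, a feedback inhibitor gene of cytokine signalling, was at 146 against 11.4 CPM. Cacnb3, a calcium channel subunit gene, was at 73.2 CPM in cells with a Ccr7 UMI and had 0 UMIs in those without. Fabp5 was at 3576 against 420 CPM (8.51-fold, 7.68 to 9.43), and Apol7c at 250 against 11.4 CPM, with 82 of its 97 UMIs in 6 of the 45 cells. Relb and Rel were 2.73-fold (2.33 to 3.21) and 2.68-fold (2.26 to 3.18) higher. Nfkb2 was at 192 against 119 CPM.

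Ccl5 was at 131 CPM in maturing cDC2s with a Ccr7 UMI and 152 CPM in those without, and it was detected in 20.0% and 19.2% of these cells. Of the 199 UMIs in cells without a Ccr7 UMI, 145 came from the cell with Gzma and Cd3e described for Ccl5, and without it that group was at 41.3 CPM, so that the order of both levels turned. Of 217 cells, 9 held both transcripts, 33 Ccl5 alone and 36 Ccr7 alone. In immature cDC2s, 5.31% of cells with and 5.51% of cells without a Ccr7 UMI held Ccl5. Cell cycle genes went the other way, with 16 of 18 compared genes at least 2-fold lower in maturing cDC2s with a Ccr7 UMI. Top2a was at 9.14 against 182 CPM.

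In immature cDC2s the same split gave 20 of 25 maturation genes higher and a median of 1.69, beside 4.48% of 5711 genes higher, 4.99% lower and a median of -0.08 over all of them. Here too members such as Apol7c and Cacnb3 were compared only through the cells with a Ccr7 UMI. The Ccr7-bearing cells of both gates were then set against each other. Of 27 compared maturation genes, 3 were at least 2-fold higher and 1 lower in the maturing gate, with a median log2 ratio of 0.02. Over all 5553 genes 3.75% were higher and 7.24% lower. Il4i1 was at 826 and 822 CPM, Socs2 at 146 and 145 CPM and Cd83 at 683 and 570 CPM. Ccl22 was at 88.4 against 190 CPM (0.465, 0.302 to 0.695), and Ccl5 at 131 against 16.7 CPM.

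**Figure D5:**
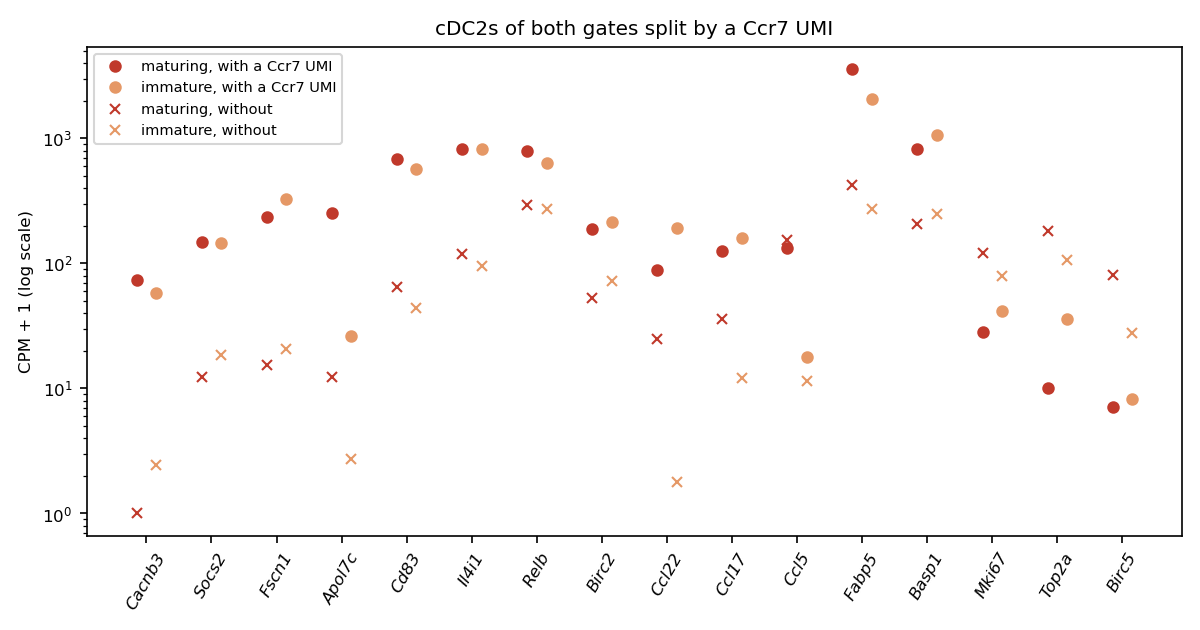
Levels (vertical axis, CPM + 1, log scale) of 16 genes in cDC2s with a Ccr7 UMI (filled circles; 45 maturing, 113 immature) and without one (crosses; 172 and 817), maturing in red and immature in orange. Circles lie above the crosses of the same gate from Cacnb3 to Ccl17, Ccl5 lies higher in both groups of the maturing gate (its cross is at 41.3 CPM without 1 cell), and the cell cycle genes Mki67, Top2a and Birc5 lie lower in cells with a Ccr7 UMI.

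Upstream sequences are shown for 3 members of the maturation list, since its genes stood higher together in cells with a Ccr7 UMI. They are the 250 bases before the annotated start, from RefSeq (GRCm38.p6), written 5' to 3' on the strand of the gene, with matches to the NF-kappaB consensus on either strand in capitals. Of 30 maturation genes 21 had an entry, and 2 of them (Nfkb2 and Pdcd1lg2) held a match, beside 7.25% of all 32851 windows. Some genes, such as Nfkb2, had several windows, so a share of genes and a share of windows are not like for like. Apol7c (chr15:77533316-77533565, minus strand), Ccl17 (chr8:94810203-94810452, plus strand) and Nfkb2 (chr19:46304487-46304736, plus strand) are printed, the first for its ratio between the gates, the second as a marker of the label and the third for its matches. The printed Nfkb2 window has 3 matches, 2 of which overlap, starting 39 and 38 bases before the start. A match is a run of letters and not a measured binding site, and a window without one says nothing of the factor.
Apol7c: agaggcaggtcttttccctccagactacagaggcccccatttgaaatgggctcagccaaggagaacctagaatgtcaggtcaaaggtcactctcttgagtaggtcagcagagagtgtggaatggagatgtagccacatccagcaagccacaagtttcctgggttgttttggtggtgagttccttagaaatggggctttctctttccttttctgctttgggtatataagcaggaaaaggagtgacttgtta
Ccl17: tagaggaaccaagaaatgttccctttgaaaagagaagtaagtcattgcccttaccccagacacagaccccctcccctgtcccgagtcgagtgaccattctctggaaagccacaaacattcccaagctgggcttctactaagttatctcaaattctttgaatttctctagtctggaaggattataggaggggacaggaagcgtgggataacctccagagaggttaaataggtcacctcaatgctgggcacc
Nfkb2: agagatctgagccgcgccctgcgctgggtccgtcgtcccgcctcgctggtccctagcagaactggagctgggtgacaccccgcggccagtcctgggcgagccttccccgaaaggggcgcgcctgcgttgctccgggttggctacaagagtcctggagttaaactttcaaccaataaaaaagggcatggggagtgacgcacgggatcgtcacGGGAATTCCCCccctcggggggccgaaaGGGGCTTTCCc

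Maturing cDC2s were also set against all other populations at once. Of 5158 genes with at least 20 CPM in maturing cDC2s, 12 (0.233%) were at least 2-fold above every other population. Among genes of at least 50 CPM the largest ratios over the next population were those of Apol7c (13.3), Gzma (5.29, from 1 cell), Ccl5 (3.91, over CD43+ monocytes), Cd83 (1.80) and Birc5 (1.80). Nr4a3, a nuclear receptor gene of early response, and Ccr7 followed at 1.75 and 1.74, with immature cDC2s next in order for both.

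The difference between both cDC2 gates was set beside that between immature and mature LysoDCs, measured in other cells of the same library. Between LysoDC gates, 73 of 5230 genes were at least 2-fold higher (1.4%) and 21 lower (0.402%). Between the 36 genes higher in maturing cDC2s and these 73, 1 gene was shared, the immunoglobulin gene Iglc1 with UMIs in 8 maturing cDC2s. Of the 47 and 21 lower genes, 0 were shared. Only the 4686 genes that passed the floor of 20 CPM in both comparisons could be shared. A part of the 36 and 47, such as Apol7c and Mdk, lay below it in both LysoDC sums. The counts are to be read beside the background shares of 1.4% and 0.402%, and say nothing of those genes. Of the 47 genes lower in maturing cDC2s, 6 were among the 73 higher in mature LysoDCs. They were Cd24a, a gene of the sorting panel, Ly6d, and the B and plasma cell genes Jchain, Igkc, Igha and Ighg2b. In immature cDC2s 1 cell gave 54.6% of the UMIs of Jchain, 375 of 601 of Igha and 165 of 257 of Ighg2b. The part of B and plasma cells was not tested. Cd83 was at 12.7 CPM in mature and 3.19 CPM in immature LysoDCs, and Ccr7 at 4.09 and 1.02 CPM.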

How the data were processed

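Dataset 1 was 1 10x Genomics 3' library. The deposited matrix holds whole-number UMI counts per gene and barcode. The authors aligned to mm10 with Cell Ranger 2.0.0, per the submitters' processing notes, while the file header names 6.0.1. Hashtags were called with Seurat 5.3.0 (CLR, quantile 0.99), and 2422 barcodes called as doublets and 1113 without a hashtag were left out. Counts were summed per population and divided by the summed UMIs. With 1 pool per population no test was made: Poisson intervals stand for levels, conditional binomial intervals for ratios and Clopper-Pearson intervals for shares, in SciPy 1.17.1, and all cover counting error only. A sum of 0 was set to 3 counts in ratios. Named genes were the markers, the sorting panel, up to 15 genes each way of at least 100 CPM, up to 6 per list, the 10 with the largest ratio over all other populations, and C1q and lysozyme genes. Immunoglobulin genes were left out of this rule. Members and lists were chosen with earlier results of these data known. Calls were tested on simulated sums with counting error only. These do not cover genes whose UMIs come mostly from 1 cell.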

Additional observations from a re-analysis of the deposited data

Results flagged for a closer look

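Of the genes past 2-fold in both comparisons, 3 immunoglobulin genes and 3 others ran opposite between maturing and immature cDC2s and between mature and immature LysoDCs. The difference of both was not tested. Further genes, among them Mdk, Cdh17 and Il7r, also ran opposite, but lay below 20 CPM in both LysoDC sums and were not called there. Only the 3 others are given here. The log2 ratio of Cd24a, a gene of the sorting panel, was -1.03 in cDC2s and 3.71 in LysoDCs. That of Jchain was -4.12 and 4.11, and that of Ly6d was -1.16 and 3.98. Without the 27 immature cDC2s that held markers of other cell types, Ly6d, which was not one of those markers, had 0 UMIs in place of 596. Jchain was itself one of the markers.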

How the results depend on the processing

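No paired analysis was possible because each population was 1 sum of cells from 1 pool. Of 36 higher and 47 lower genes and 12 above every other population, keeping C1q-high cells gave 73 higher and 6 above every other, and turned Il22ra2 to 0.14. A C1q threshold of 5 UMIs gave 87 lower, a C1q-high share of 46.0% and -0.61 for Vpreb3. A floor of 5 CPM gave 164, 301 and 43, no floor 897, 705 and 425, and thinning to 2000 UMIs 113, 253 and 21. Without the highest cell of each gene 22 were higher. TMM scaling gave 41 higher and 35 lower, with the median of all genes at -0.01 in place of -0.09. The share of higher among called genes, 43.4%, was 66.4% with C1q-high cells, 54.0% with TMM, 33.1% with the threshold of 5, 56.0% with no floor, 30.9% thinned and 27.5% without the highest cells. The median log2 ratio of the 4 markers, 0.86, was 1.28 at quantile 0.95, 1.54 with MULTIseqDemux, and 0.45 without cells with other types' markers. Without cells with a Ccr7 UMI, which removes Ccr7, it was 2.86, a value that is Il12b's own and not a measured ratio, since its 0 UMIs against 2 were set to 3 counts. Over the 2 markers that passed the floor it was 2.75. Without other types' cells Jchain, Ly6a and Ly6d stood at 0.55, 0.13 and 0.55, from at most 8 UMIs a sum. Jchain was itself a marker that chose these cells. The value of Ly6d, with 1 UMI against 0, came from setting 0 to 3 counts and is no measured ratio. The Ccr7 share, 12.4%, was 6.91% at 1000 UMIs and 20.7% unthinned. The cause of the other moves was not tested.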
